A study of Mus musculus with 6 samples.

Results

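The 4 Janus kinase genes Jak1, Jak2, Jak3 and Tyk2 and the 5 STAT genes Stat2, Stat3, Stat5a, Stat5b and Stat6 were measured in mouse bone marrow-derived basophils (BMBAs) stimulated with IL-3 or with PBS. They were taken by gene symbol from a table of raw read counts, and these 9 genes are 9 of the 37043 symbols in it. All 9 passed the filter on low counts and were among the 16675 genes tested. Other members of the STAT family were not analysed here. The BMBAs came from C57BL/6J WT mice. Bone marrow cells spent 7 days in culture with 0.3 ng/mL of a cytokine that the study's methods name as IL-3, and basophils were enriched with beads through CD49b. Cells of both groups therefore had met IL-3 before the stimulation. In the stimulation, 3 cultures received 10 ng/mL IL-3 and 3 received PBS for 6 h, in a single experiment. No source used here says whether the cultures came from separate mice, or whether IL-3 stayed in the PBS cultures, so p-values measure the spread between these cultures only. The enrichment leaves other cells of the culture in the sample.

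JAKs are tyrosine kinases that sit on the inner ends of cytokine receptors, which have no kinase of their own. When a cytokine brings receptor chains together, the JAKs phosphorylate each other and the receptor, STAT proteins dock there, are phosphorylated in turn, form dimers and enter the nucleus to switch on genes. The beta chain of the IL-3 receptor works with JAK2 and activates mainly STAT5A and STAT5B, which sustain growth and survival of basophils, mast cells and other myeloid cells. JAK1 and JAK3 serve receptors that share the common gamma chain, JAK1 and TYK2 serve interferon receptors, and STAT6 answers IL-4 and IL-13. The measurements below are of transcripts and hold no information on phosphorylation.

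Jak2 rose with IL-3 and Jak1 rose less, while Stat3 and Stat5b fell slightly. The other 5 genes, Jak3, Tyk2, Stat2, Stat5a and Stat6, did not pass the test. Expression is given as CPM, which are counts scaled to library size, here after TMM normalisation (a trimmed mean of log ratios between libraries), and changes were tested with edgeR's quasi-likelihood F test over all 16675 genes, with a call at an adjusted p below 0.05. Of the 9 genes, 2 were called higher and 2 lower. Over all genes tested, 18.0% were called higher and 20.2% lower, together 38.2%, so the share of calls among these 9 genes was close to that of the whole table. With library totals in place of TMM, 2 of the 9 genes were called higher and 4 lower, against 10.2% and 30.1% of all genes. In 5 of the 9 genes the libraries of the groups did not overlap, against 48.2% of all genes tested. The median log2 fold change was -0.05 over the 9 genes and -0.0033 over all genes tested.

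Jak2, the kinase of the IL-3 receptor beta chain, more than doubled. It had 76.7, 76.7 and 78.2 CPM in the PBS libraries and 162, 154 and 172 CPM in the IL-3 libraries. The PBS libraries lay close together and all IL-3 libraries were far above them. The means were 77.2 ± 0.864 and 163 ± 9.29 CPM (SD, n = 3 each), resting on 875 to 938 and 1639 to 2220 counts. The log2 fold change was 1.07 (SE 0.0609), a 2.11-fold rise with a 95% confidence interval of 1.92 to 2.30, and the edgeR adjusted p was 8.59e-10. Only 3.53% of all genes tested had a larger rise. Jak2 was the only 1 of the 9 genes that stayed called when the rise or fall had to exceed a fold of 1.5. It was also the only 1 whose estimate lay beyond that fold, so the outcome for the others was fixed by construction. None of its 50-mers (transcript stretches of 50 bases) occurred in a transcript of another gene.

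Jak1, which pairs with many receptor chains, was the most abundant of the kinases. It had 261, 243 and 262 CPM in the PBS libraries and 362, 327 and 323 CPM in the IL-3 libraries. The groups did not overlap, and IL-3 replicate 1 was the highest library. The log2 fold change was 0.40 (SE 0.0577), a 1.32-fold rise with a 95% confidence interval of 1.21 to 1.44 and an edgeR adjusted p of 4.05e-05. Jak1 lost its call in a test against a fold of 1.5, by construction of that test.

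Jak3, the kinase that partners the common gamma chain, was the rarest of the 9 genes. It was measured at 17.3, 13.9 and 15.8 CPM after PBS and at 13.0, 13.8 and 11.4 CPM after IL-3, from 132 to 211 counts per library. The groups did not overlap, but PBS replicate 2 and IL-3 replicate 2 were nearly level. The log2 fold change was -0.30 (SE 0.133) with a p of 0.0416 before and 0.0940 after adjustment in edgeR, so Jak3 did not pass the test. Scaling by library totals without TMM moved it to -0.46 with an edgeR adjusted p of 0.0135. Insl3 is annotated within the Jak3 locus on the same strand over 1362 bases, and 6.53% of the 50-mers of Jak3 transcripts were shared with it. Insl3, named because of this overlap, was nearly absent, with means of 0.375 and 0.175 CPM in the PBS and IL-3 groups.

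Tyk2, which serves interferon and IL-12 type receptors, stayed level. It had 38.0, 40.4 and 44.0 CPM in the PBS libraries and 39.7, 38.1 and 44.2 CPM in the IL-3 libraries, and the groups overlapped fully. The 95% confidence interval of its fold change ran from 0.877 to 1.14 (edgeR adjusted p 0.988). The sign of this difference was not stable, since the log2 fold change was -0.0023 with TMM, 0.00091 with DESeq2 size factors and -0.17 with library totals, and it was above 0 when PBS replicate 3, IL-3 replicate 1 or IL-3 replicate 2 was left out.

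**Figure D1:**
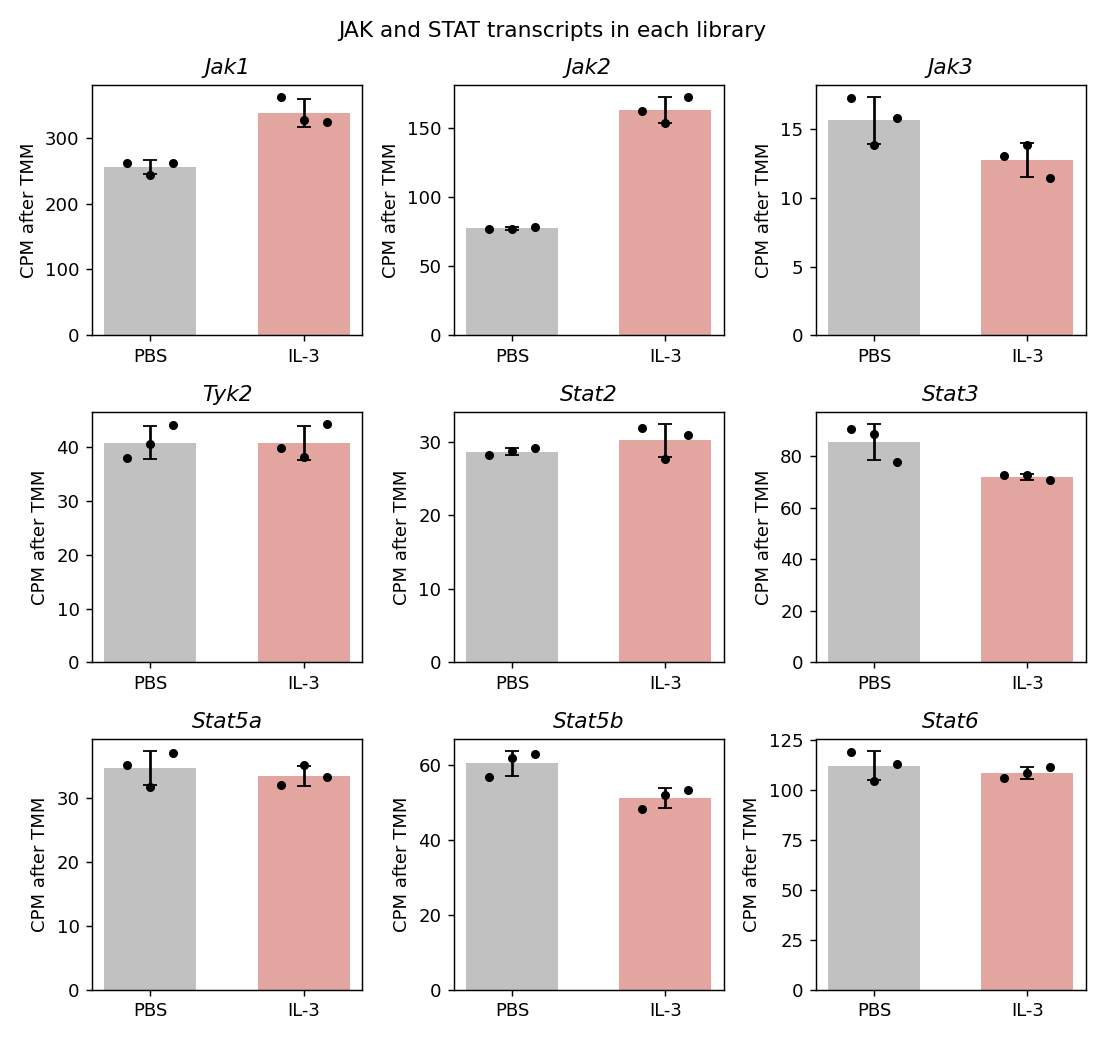
CPM after TMM of the 9 genes, each panel with its own axis from 0. Bars are the mean of 3 libraries, error bars the SD and points single libraries, PBS in grey and IL-3 in red. Jak2 goes from 77.2 to 163 CPM, Jak1 from 255 to 338 CPM, and the panels of Tyk2, Stat2, Stat5a and Stat6 show overlapping libraries.

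Stat5a and Stat5b encode the STATs that the IL-3 receptor chiefly activates, and neither rose. Stat5a had 35.1, 31.7 and 37.0 CPM in the PBS libraries and 32.0, 35.1 and 33.2 CPM in the IL-3 libraries. The groups overlapped, and the 95% confidence interval of the fold change was 0.848 to 1.10 (edgeR adjusted p 0.705). Stat5b had 56.7, 61.7 and 62.8 CPM in the PBS libraries and 48.2, 51.9 and 53.4 CPM in the IL-3 libraries. All IL-3 libraries of Stat5b lay below all PBS libraries, with a gap between the groups that was smaller than the spread within the PBS group. Its log2 fold change was -0.24 (SE 0.0735), a fold of 0.848 with a 95% confidence interval of 0.761 to 0.945 and an edgeR adjusted p of 0.0178. The call on Stat5b rested on single libraries, since the edgeR adjusted p became 0.0548 or 0.0623 when PBS replicate 2 or 3 was left out, and 0.0717 when IL-3 replicate 1 was, so that Stat3 alone was then called lower. The call was also lost against a fold of 1.5, by construction of that test.

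Stat5a and Stat5b lie next to each other on chromosome 11 and are close copies, so their reads can be confused. Of the 50-mers of Stat5a transcripts 8.21% occurred in Stat5b, and of those of Stat5b 11.0% occurred in Stat5a, with no other gene involved. The longest identical run was 324 bases long and wholly coding. It spans exons 7 to 9 of the transcript Stat5a-201 at chr11:100874023-100874983 on the plus strand and exons 6 to 8 of Stat5b-201 at chr11:100797741-100798701 on the minus strand (GRCm38, GENCODE M21). Its first 120 bases are printed to show the stretch in which a read cannot be told apart.
Stat5a and Stat5b: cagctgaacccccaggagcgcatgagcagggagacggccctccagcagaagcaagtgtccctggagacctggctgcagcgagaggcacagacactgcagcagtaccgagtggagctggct
A measure that does not depend on library scaling is the ratio of the counts of Stat5a to those of Stat5b. It was 0.619, 0.514 and 0.589 in the PBS libraries and 0.664, 0.676 and 0.622 in the IL-3 libraries. Every IL-3 library had a higher ratio than every PBS library, although PBS replicate 1 and IL-3 replicate 3 were almost equal. The log2 ratio rose by 0.19 on average (exact permutation test, two-sided, p = 0.1, which is the smallest p that 3 against 3 libraries allow).

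Stat3, which answers IL-6 type cytokines and IL-10, fell slightly. It had 90.3, 88.6 and 77.6 CPM in the PBS libraries and 72.8, 72.5 and 70.7 CPM in the IL-3 libraries. The IL-3 libraries were tightly grouped below the PBS libraries, of which PBS replicate 3 was the nearest. The log2 fold change was -0.25 (SE 0.0689), a fold of 0.842 with a 95% confidence interval of 0.760 to 0.932 and an edgeR adjusted p of 0.00935. This call too was lost against a fold of 1.5, by construction of that test.

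Stat6, which answers IL-4 and IL-13, was the most abundant of the 5 STAT genes. It had 119, 104 and 113 CPM in the PBS libraries and 106, 108 and 112 CPM in the IL-3 libraries, with overlap between the groups. The 95% confidence interval of the fold change was 0.883 to 1.06 (edgeR adjusted p 0.605). With library totals in place of TMM its log2 fold change was -0.21 and it was called lower (edgeR adjusted p 0.0151). Stat2, the partner of IRF9 in the response to type I interferon, had 28.1, 28.8 and 29.1 CPM after PBS and 31.9, 27.6 and 30.9 CPM after IL-3 stimulation. Its groups overlapped, its log2 fold change was 0.07 with TMM and -0.089 with library totals, and the 95% confidence interval of the fold change with TMM was 0.919 to 1.20 (edgeR adjusted p 0.577).

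**Figure D2:**
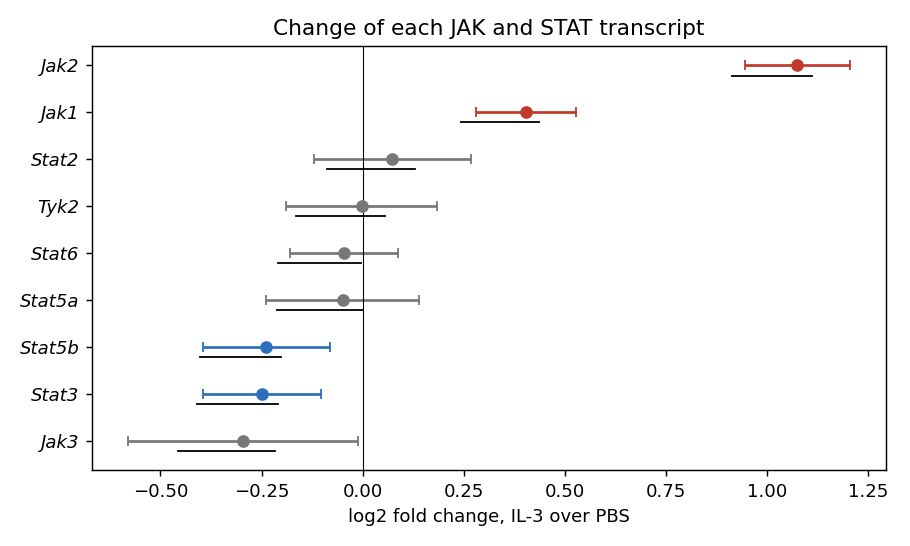
Log2 fold change of IL-3 over PBS for the 9 genes. Points with bars are the estimate and its 95% confidence interval, red for called higher, blue for called lower and grey for not called; the thin black line under each is the range over other scalings, filters, tests and left-out libraries. Jak2 at 1.07 stands apart from Jak1 at 0.40, and the remaining genes lie between -0.30 and 0.07.

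To compare levels between genes, CPM was divided by the length of the longest annotated transcript, from 3775 bases for Stat6 to 6042 bases for Stat3. In PBS-treated BMBAs the level per kb was highest for Jak1 at 52.0 ± 2.18 CPM per kb (SD, n = 3). Stat6 followed at 29.7 ± 1.91 and Jak2 at 15.4 ± 0.172 CPM per kb. Stat3 and Stat5b had 14.2 ± 1.14 and 11.6 ± 0.626 CPM per kb. Stat5a and Tyk2, at 8.74 ± 0.673 and 8.45 ± 0.624 CPM per kb, were the only neighbours in this order whose libraries overlapped. Stat2 and Jak3 came last with 6.52 ± 0.107 and 3.86 ± 0.422 CPM per kb. In IL-3 the order differed in a single exchange, with Jak2 at 32.3 ± 1.85 CPM per kb above Stat6 at 28.7 ± 0.793 CPM per kb, and again only Stat5a and Tyk2 overlapped among neighbours. The order depends on the length used: 5 of the 9 genes kept their place in PBS with the union of all exons and 3 with the median transcript length.

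Jak2 made up a larger share of the kinase transcripts in every IL-3 library than in any PBS library. Its share of the summed level per kb of the 4 kinase genes was 18.9%, 19.9% and 19.0% in the PBS libraries and 27.4%, 28.1% and 30.5% in the IL-3 libraries. The share of Jak1 went from 65.3% ± 0.688 to 61.0% ± 2.07, although its own level rose. The shares of Tyk2 and Jak3 went from 10.6% ± 0.739 to 7.48% ± 0.612 and from 4.84% ± 0.416 to 2.80% ± 0.320 (SD, n = 3 each). For each of the 4 kinase genes the libraries of the groups did not overlap. The exact permutation test gave p = 0.1 for each, the smallest p it allows, and 0.18 after adjustment over the 9 shares of kinase and STAT genes. These shares do not depend on how libraries were scaled, but they depend on the lengths used. The share of Jak2 rose by 11.2 percentage points with the union of all exons and by 2.26 with the median transcript length, against 9.40 with the longest transcript, since the median length of Jak1 is only 630 bases. The falls of the shares of Jak1, Tyk2 and Jak3 were likewise smaller with the median length, at -1.38, -0.530 and -0.349 percentage points.

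Among the STAT transcripts, Stat6 made up 42.0% ± 1.58 of the summed level per kb of the 5 STAT genes in PBS and 43.7% ± 0.436 in IL-3. The differences in share between the groups ranged with the longest transcript from -1.90 percentage points for Stat3 to 1.73 percentage points for Stat6, and only for Stat2 did the libraries not overlap (9.23% ± 0.359 and 10.4% ± 0.837). With the median length the difference for Stat3 was -3.21 percentage points, larger in size than that of Jak2 with the same length. The exact permutation p for the 5 shares ran from 0.1 to 0.4. Summed over each family, the kinase transcripts were at 79.7 ± 2.79 and 113 ± 4.45 CPM per kb in PBS and IL-3, and the STAT transcripts at 70.7 ± 1.90 and 65.8 ± 1.17 CPM per kb. Within each library, the kinase sum divided by the STAT sum was 1.11, 1.11 and 1.16 in PBS and 1.82, 1.65 and 1.68 in IL-3, a ratio formed after the values were seen and given without a test.

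**Figure D3:**
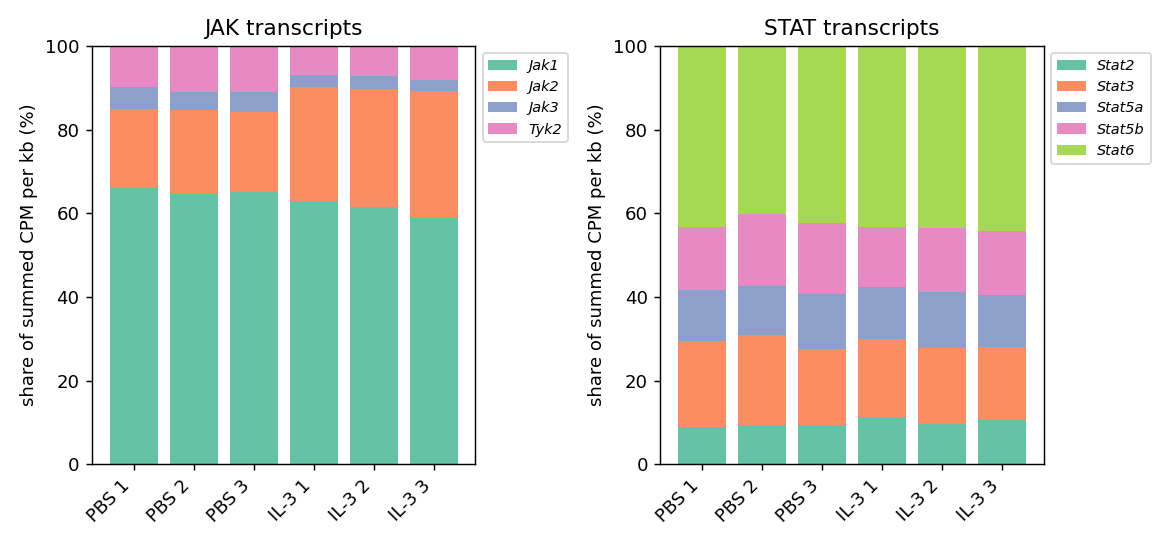
Share of each gene in the summed CPM per kb of the 4 kinase genes (left) and of the 5 STAT genes (right), 1 stacked bar for each library. The Jak2 part widens from a mean of 19.3% in PBS to 28.7% in IL-3, and the parts of the STAT genes change by -1.90 to 1.73 percentage points. Lengths are those of the longest transcripts; with median transcript lengths Jak2 changes by 2.26 and Stat3 by -3.21 percentage points.

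The genes are spread over 6 chromosomes in GRCm38. Jak1 is on chromosome 4 (101152367 to 101265282, minus strand), Jak2 on chromosome 19 (29251828 to 29313080, plus strand), Jak3 on chromosome 8 (71676296 to 71690575, plus strand) and Tyk2 on chromosome 9 (21104068 to 21131243, minus strand). Stat6 (127642986 to 127660957) and Stat2 (128270559 to 128292849) share chromosome 10, both on the plus strand. On chromosome 11, Stat5b (100780731 to 100850724, minus strand) is followed after 8626 bases by Stat5a (100859351 to 100885169, plus strand). The 3' end of Stat5a overlaps that of Stat3 (100885098 to 100939540, minus strand) by 72 bases, and the 3' end of Stat6 overlaps that of Nab2 by 40 bases, so without strand a few reads there could belong to either gene.

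The rise of Jak2 was not shared by the nearest tested genes on either side. Insl6, 8264 bases away, fell from a mean of 8.47 to 4.56 CPM (log2 fold change -0.88, edgeR adjusted p 0.00402), and Gm5518, 91066 bases away on the other side, had a log2 fold change of -0.05 (edgeR adjusted p 0.819). Beyond Stat3, the next tested gene was Cavin1 at 17193 bases, which fell from 5.28 to 2.72 CPM, and beyond Stat5b it was Ghdc at 9774 bases, with a log2 fold change of 0.03. Next to Stat6 on the lower side, Lrp1 was at 97.4 and 58.2 CPM and called lower (log2 fold change -0.74), while Stat6 itself did not pass the test. Nab2, a corepressor gene named for its overlap with the 3' end of Stat6, rose from 26.4 to 42.7 CPM (log2 fold change 0.69, edgeR adjusted p 2.56e-05).

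The start regions of the kinase and STAT genes that moved are printed with that of Cish, a textbook target of STAT5 that rose strongly here. Each window holds 250 bases before and 50 after a RefSeq start in GRCm38.p6, read 5' to 3' on the strand of the gene. In every window capitals mark GGGCGG or its reverse complement CCGCCC, a motif of factors of the SP family, TGACGTCA, a motif of factors of the CREB family, and TTCNNNGAA, the motif that dimers of STAT5 and most other STATs bind. TGACGTCA occurs in the window of Jak1 and TTCNNNGAA in that of Cish, which also holds CCGCCC.
Jak2, chr19:29251553-29251852, plus strand: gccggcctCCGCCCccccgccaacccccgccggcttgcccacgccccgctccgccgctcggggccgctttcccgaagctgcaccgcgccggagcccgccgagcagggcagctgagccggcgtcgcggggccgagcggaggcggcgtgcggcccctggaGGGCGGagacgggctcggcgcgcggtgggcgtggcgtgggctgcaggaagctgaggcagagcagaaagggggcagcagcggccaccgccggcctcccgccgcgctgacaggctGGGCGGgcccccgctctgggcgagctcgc
Jak1, chr4:101265174-101265473, minus strand: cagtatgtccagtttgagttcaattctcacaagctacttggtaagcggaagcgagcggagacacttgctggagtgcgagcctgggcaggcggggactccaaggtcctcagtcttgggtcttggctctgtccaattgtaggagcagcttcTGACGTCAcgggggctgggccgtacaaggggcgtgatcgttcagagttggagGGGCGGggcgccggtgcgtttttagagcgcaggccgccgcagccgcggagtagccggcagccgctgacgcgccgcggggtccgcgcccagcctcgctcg
Stat5b, chr11:100850532-100850831, minus strand: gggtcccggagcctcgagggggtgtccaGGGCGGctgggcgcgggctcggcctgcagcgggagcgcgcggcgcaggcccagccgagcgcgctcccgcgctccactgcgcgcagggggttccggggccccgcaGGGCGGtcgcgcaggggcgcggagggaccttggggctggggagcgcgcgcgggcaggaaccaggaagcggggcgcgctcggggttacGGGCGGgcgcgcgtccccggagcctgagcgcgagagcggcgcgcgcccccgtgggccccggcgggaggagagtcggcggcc
Stat3, chr11:100939491-100939790, minus strand: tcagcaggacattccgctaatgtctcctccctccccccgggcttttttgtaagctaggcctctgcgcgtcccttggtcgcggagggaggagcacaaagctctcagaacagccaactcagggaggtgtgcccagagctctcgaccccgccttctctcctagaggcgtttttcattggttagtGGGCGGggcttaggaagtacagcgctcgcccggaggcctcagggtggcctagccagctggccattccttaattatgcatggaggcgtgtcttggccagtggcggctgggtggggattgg
Cish, chr9:107296409-107296708, plus strand: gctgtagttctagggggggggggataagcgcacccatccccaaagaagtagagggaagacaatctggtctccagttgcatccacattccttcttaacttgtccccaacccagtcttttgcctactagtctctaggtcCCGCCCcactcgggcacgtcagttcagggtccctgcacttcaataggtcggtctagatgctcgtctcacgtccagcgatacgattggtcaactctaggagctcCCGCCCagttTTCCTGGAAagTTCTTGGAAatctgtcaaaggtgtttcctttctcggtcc
The printed windows of Jak2 and Stat5b had 3 GGGCGG motifs each and a GC content of 81.0% and 82.7%, those of Jak1 and Stat3 had 1 each with 64.7% and 60.7% GC, that of Cish had 2 with 53.3% GC, and the median over all windows was 52.7%. The 9 genes had 11 windows in the table. Stat5b had a second window at chr11:100822521-100822820, within the gene, with 0 GGGCGG motifs and 47.3% GC, and the window nearest to the annotated start of the gene is the one printed. GGGCGG was found in 8 of the 11 windows (at least 1 for each gene but Stat6), against 35.7% of all 32851 windows, and all 4 SOCS family genes with a window held it too. TTCNNNGAA was found in none of the 11 windows, against 8.30% of all windows. With so few windows, its absence does not set these genes apart from all windows. It was held by 2 of the 4 SOCS family genes with a window, Cish and Socs3, out of 8 genes in that list. TTCNNNNGAA, the wider spacing that STAT6 also binds, was found in 1 of the 11 windows, that of Stat2, against 6.95% of all windows. TGACGTCA was found in 1 of the 11, that of Jak1, against 1.79% of all windows, and CACGTG in none, against 7.15%. CCAAT was found in 4 of the 11 windows, those of Jak1, Tyk2, Stat2 and Stat3, against 37.4% of all windows. Both strands were searched. A match describes letters in these windows and is not a measured binding site.

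Genes whose pattern over the 6 libraries was most like that of Jak2 were sought by the smallest Euclidean distance of log2 CPM centred over the libraries. They were Gm47761, Myo1d and Cd200r1, at distances of 0.0648, 0.0690 and 0.0845. Myo1d, which encodes an unconventional myosin, went from 146 to 315 CPM and Cd200r1, which encodes an inhibitory receptor, from 142 to 302 CPM. For Stat3, the called member with the largest fall, they were Cd44, Atg5 and Mtss1, at distances of 0.0562, 0.0757 and 0.0786. With 6 libraries in 2 groups these distances mainly describe a like change between the groups.

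The other genes of the pathway were counted by their roles, and each count can be read against the 18.0% of all genes tested that were called higher and the 20.2% called lower. The lists were chosen with earlier results of these data known, so the counts describe and do not test. Of the 5 chains of the receptors for IL-3, IL-5 and GM-CSF, 3 were called higher and 1 lower, with a median log2 fold change of 0.39. Csf2rb and Csf2rb2, the beta chains on which JAK2 sits, rose by 1.33 and 1.66 on the log2 scale (edgeR adjusted p 2.29e-13 and 3.84e-14), both more than Jak2, and Csf2ra, the alpha chain for GM-CSF, fell by 0.53. The reads of Csf2rb and Csf2rb2, which are close copies, may be split uncertainly. Of 28 tested chains of other receptors that use JAKs, 7 were called higher and 8 lower (median -0.16), shares not far above those of all genes. Il4ra, the chain that STAT6 docks on, and Il10ra rose by 1.62 and 1.63, whereas Il7r fell by 1.22.

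The SOCS family, feedback inhibitors of JAKs and receptors, had 6 of 8 genes called higher and none lower (1 lower with library totals), with a median log2 fold change of 1.54. Cish went from 81.2 ± 6.61 to 1311 ± 53.5 CPM (SD, n = 3 each). Socs1, which blocks the kinase site of JAKs, and Socs3 had log2 fold changes of 4.12 and 3.63. Of 14 phosphatases and other brakes, 4 were called higher and none lower (median 0.0039). This balance depended on the scaling, since 1 was higher and 5 were lower with library totals, and 2 were higher when IL-3 replicate 1 was left out and 1 was lower when PBS replicate 3 or IL-3 replicate 2 was. The 4 called with TMM included Ptpn2, a phosphatase of JAKs and STATs, at 0.68 (edgeR adjusted p 2.94e-05) and Sh2b3, an adaptor that restrains JAK2, at 0.28 (edgeR adjusted p 0.00480). Of 15 partners of JAKs and STATs, 6 were called higher and 2 lower (median 0.16), against 2 and 2 with library totals. The number higher was 3 when PBS replicate 2, IL-3 replicate 1 or IL-3 replicate 2 was left out. Gab2, a docking adaptor downstream of the beta chain, rose by 1.14, and Sh2b2, an adaptor that binds JAKs, fell by 0.74.

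Known targets of the STATs were counted in the same way, from lists also chosen with earlier results of these data known. Of 11 tested STAT5 targets 10 were called higher and 1 lower, with a median log2 fold change of 2.44. Osm, Id1 and Ccnd2, encoding a cytokine, an inhibitor of helix-loop-helix factors and a D cyclin, rose by 3.69, 2.37 and 2.44. The lower gene was Bcl6, a repressor, chosen after its values were seen, at -1.58. Of 11 tested targets of STAT3, 6 were called higher and 1 lower (median 0.34), and of 11 tested targets of STAT6, 6 were called higher and 1 lower (median 1.20). These lists share genes, since Il4ra stands in both and Cish and Socs3 are also feedback inhibitors. The median of the STAT6 targets is the value of Ccl17, named after its values were seen. Ccl17 was at a few CPM, its groups overlapped and it was not called, so this median does not stand for a called rise. Among the STAT6 targets called higher, Ccl24 and Ch25h, the second named after its values were seen, had at most 5 counts in any PBS library. Of 14 tested targets of STAT2 and IRF9, none was called higher and 2 were called lower, namely Bst2 at -0.61 and Oas1a at -0.68 (median -0.59). Most of the latter list was expressed at a few CPM. The number lower in it was 7 with library totals, 4 when PBS replicate 2 or IL-3 replicate 1 was left out, and 1 when PBS replicate 1 or IL-3 replicate 3 was. The number of STAT6 targets called lower was 3 with library totals and 2 without PBS replicate 2 or 3 or IL-3 replicate 1 or 3. Of the 112 genes tested over all pathway lists, 44 (39.3%) were called higher and 16 (14.3%) lower. With library totals in place of TMM, 35 (31.2%) were called higher and 32 (28.6%) lower, against 10.2% and 30.1% of all genes tested under that scaling.

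**Figure D4:**
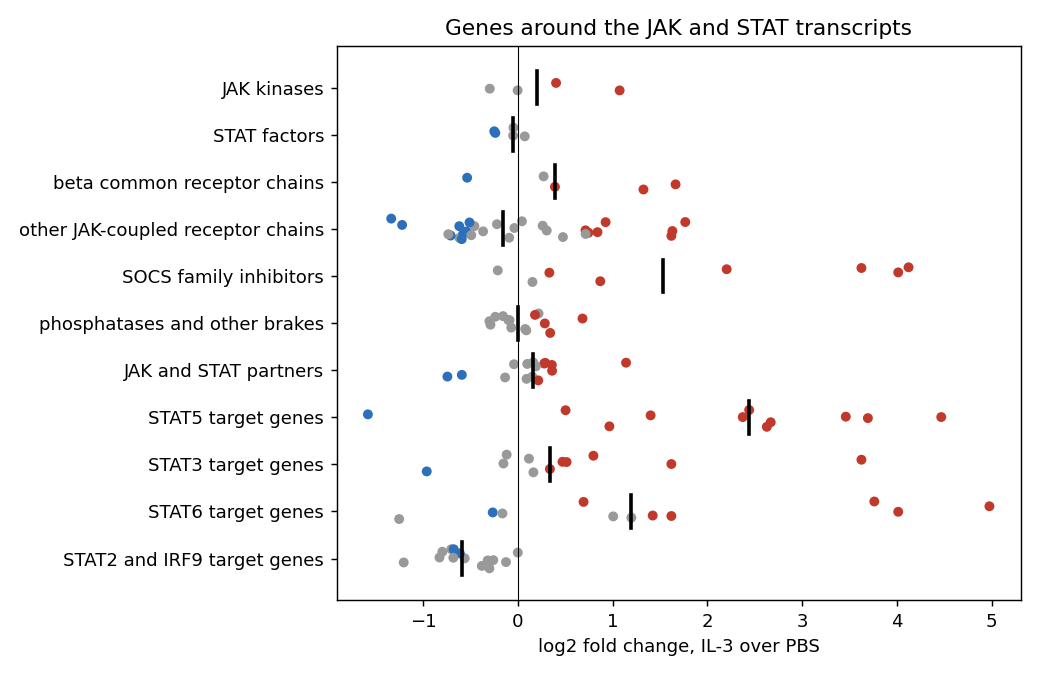
Log2 fold change of IL-3 over PBS for tested genes of each list, 1 point a gene, red for called higher, blue for called lower and grey for not called; the black bar is the median of the list. The STAT5 targets and the SOCS family have medians of 2.44 and 1.54, while the STAT genes themselves lie within 0.25 of 0. The lists were chosen with earlier results of these data known.

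Markers of the cells in the culture moved as well, and RNA from more or fewer cells of a type cannot be told apart from a change per cell in bulk samples. Of 9 basophil markers, 7 were called higher and 1 lower, and their summed level was 10971 to 12223 CPM in the PBS libraries and 17313 to 17575 CPM in the IL-3 libraries. Prss34, the most abundant over all 6 libraries, was at 5615 ± 323 and 5661 ± 183 CPM and did not pass the test, while Mcpt8, chosen after its values were seen, rose from 3066 ± 171 to 5895 ± 178 CPM (SD, n = 3 each). The 1 called lower, Fcer1a, named after its values were seen, fell from 289 to 204 CPM (log2 fold change -0.50, edgeR adjusted p 2.38e-06). Of 10 monocyte and macrophage markers, 8 were called lower and 2 higher, with summed levels of 11897 to 12854 CPM and 6224 to 6845 CPM. Lyz2, the most abundant of these, had a log2 fold change of -0.97. The 2 called higher, Adgre1 and Ly6c2, named after their values were seen, had log2 fold changes of 0.53 and 1.29. Mast cell markers, of which 4 of 6 tested were called higher, summed to 841 to 945 CPM in PBS and 1438 to 1572 CPM in IL-3. The most abundant of them, Cpa3, had a log2 fold change of 0.53. These changes ran alongside those of Jak2, Jak1, Stat3 and Stat5b, and their part in them was not tested. Lymphocytes, which use JAK3, were represented by low counts: all 6 NK cell markers were below 1 CPM in every library and Gzma had no count at all. The B cell markers summed to 8.10 to 11.6 CPM in PBS and 6.58 to 8.98 CPM in IL-3, and 1 of 4 tested, Cd79b, was called lower (log2 fold change -1.06, edgeR adjusted p 0.0392), a call lost when PBS replicate 2 or 3 or IL-3 replicate 1 or 2 was left out. None of 5 tested T cell markers was called, or 1 higher without PBS replicate 3. Of the whole list, Cd3e and Trac were below 1 CPM everywhere, Cd3d was at 1.58 to 2.96 CPM, Cd3g, Cd247 and Cd8a were at no more than 3.16 CPM in any library, and Lat, which mast cells also make, was at 94.0 and 104 CPM. The summed levels in PBS and IL-3 were 172 to 212 and 187 to 254 CPM for neutrophil markers, 155 to 173 and 95.0 to 136 CPM for eosinophil markers, and 100.0 to 219 and 54.6 to 101 CPM for erythroid markers, of which Alas2 had no count. Of 7 tested neutrophil markers 2 were called higher and 2 lower, with 5 higher when PBS replicate 1 or 2 was left out and 4 higher without IL-3 replicate 2. Of 5 tested eosinophil markers 1 was called higher and 3 lower, and of 4 erythroid markers none higher (1 without IL-3 replicate 1) and 2 lower. The most abundant over all 6 libraries, Mmp8, Ear2 and Hba-a1, had log2 fold changes of -0.86, -1.39 and -1.14. The markers called higher, Retnlg, Ly6g and Prg2, named after their values were seen, had log2 fold changes of 2.61, 3.66 and 3.54. The 6 libraries held 10537540 to 13999287 counts.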

How the data were processed

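Bulk RNA-seq was performed on 6 libraries, 3 of PBS-treated and 3 of IL-3-stimulated BMBAs. The authors deposited raw read counts per gene symbol. As the study describes it, poly(A) RNA was reverse-transcribed on oligo-dT beads and amplified as cDNA, and reads were trimmed with Cutadapt, mapped with Bowtie2 to reference RNA of GRCm38 and counted per gene. The submitters' processing notes name the same tools, with cutadapt 3.4, but the build GRCm39. Of all symbols, 96.22% were found in GENCODE M21 (GRCm38), which was used for coordinates, lengths and 50-mers, so coordinates are those of GRCm38 whichever build the authors mapped to. No molecular identifiers or strand setting are described, so PCR copies were counted as reads.

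Counts were filtered with filterByExpr, scaled by TMM and tested with the quasi-likelihood F test of edgeR 4.0.16 (R 4.3.3), two-sided, with the group as the only term; the study itself used the TCC package. P-values were adjusted by Benjamini-Hochberg over the 16675 genes tested. The SE was derived from the F value and the 95% confidence interval from the SE and the degrees of freedom of that test. The log2 CPM used for distances had a prior count of 2. Shares and ratios were compared with exact permutation tests over libraries. No pair of libraries agreed within sampling noise (chi-square per degree of freedom at least 2.94).

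The 9 genes and the lists were chosen with earlier results of these data known. Named are all 9 genes, from each pathway list the 3 with the smallest adjusted p, from each marker list the most abundant tested gene, the 3 genes most like Jak2 and Stat3, and neighbouring genes. Values are reported for a subset of these, and any other gene is marked or is named for its overlap or its absence of counts. The pipeline was tested on simulated counts for IL-3 against PBS, in which 75.6% of 193 genes changed 2-fold were recovered among 16433 genes. The simulation changed 200 genes, as many up as down, whereas 38.2% of genes were called in the data. It therefore did not test the choice of scaling. Alternatives were other scalings (DESeq2 1.42.0 size factors, library totals), filters, tests (DESeq2 Wald test, limma-voom with limma 3.58.1, edgeR exact test, glmTreat), thinning, a stricter threshold, a replicate block and leaving out each library.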

Additional observations from a re-analysis of the deposited data

How the results depend on the processing

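Jak2 was called higher under every alternative run, between 0.91 and 1.11. Jak1 (0.40), Stat3 (-0.25) and Stat5b (-0.24) lost their calls against a fold of 1.5 by construction of that test, which left 1 of the 9 genes higher and 0 lower, and 26 higher and 3 lower genes over the pathway lists. At an adjusted p of 0.01 Stat5b (-0.24) was not called, which left 1 gene lower. Library totals without TMM shifted the median of all genes by -0.16. They brought Jak3 to -0.46 and Stat6 to -0.21, both called, so that 4 of the 9 genes were lower, and Stat2 to -0.089, and over the pathway lists 35 genes were higher and 32 lower. Under library totals Jak1 was at 0.24 (edgeR adjusted p 0.00619), Stat3 at -0.41 and Stat5b at -0.40, all still called. Tyk2, never called, was at 0.00091 with DESeq2 size factors, 0.0093 with no filter, 0.00067 with the DESeq2 Wald test and 0.00080 with limma-voom, against -0.0023. With 1 library left out Tyk2 ranged from -0.067 to 0.054 and Stat5b from -0.28 to -0.20, and the number of genes called lower ranged from 1 to 2. With the union of exons 5 genes, and with median transcript length 3 genes, kept their place in the order of levels. The share of Jak2 moved between 2.26 percentage points with median length and 11.2 with the union of exons. With the replicate number as a block, Jak2 was at 1.07 and the same 4 genes were called, and the change of the log2 ratio of Stat5a to Stat5b was 0.19 (exact permutation p = 0.25 over sign flips, the smallest possible). Deviations of same-numbered libraries correlated at -0.0087, -0.016 and -0.022. With 3 libraries in each group, such correlations cannot tell whether same-numbered cultures shared a mouse or a batch. Depth limits Jak3 most, which had at most 211 counts in a library.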
